A study of Rattus norvegicus with 18 samples.

Results

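Polysomal RNA was set against total RNA of the same rat lungs at fetal day 22 (FD22), the saccular stage just before birth, to find the mRNAs that were over- or under-represented on large polysomes at that time. The 6 arrays of this comparison were taken by their labels from the 18 arrays of a study of the perinatal lung: 3 arrays of FD22 total RNA and 3 of FD22 polysomal RNA. The other 12 arrays hold the same kinds of RNA at fetal day 19 (FD19, the canalicular stage) and at postnatal day 1 (P1), 5 h after birth, with 3 arrays in each group. All animals were Wistar rats with no treatment or engineered allele. FD22 fetuses were delivered by Caesarean section, as FD19 fetuses were, whereas P1 pups were born vaginally.

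Each stage had 3 litters, and the lungs of each litter gave 1 lysate, called lysate 1, 2 and 3 below. An aliquot of a lysate gave total RNA by Trizol. The rest was spun through a sucrose gradient, and RNA was taken from the fractions in which an mRNA carried more than 7 ribosomes, with guanidine-HCl and phenol/chloroform. The kind of RNA and the extraction therefore went together and cannot be told apart. Equal inputs of 5 µg RNA were labelled for Affymetrix Rat Genome 230 2.0 arrays.

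Several ribosomes read an mRNA at a time, and such an assembly is a polysome. How heavy it is depends on how often ribosomes start on the mRNA, how fast they move, and how long the coding region is, so a short coding region has room for few ribosomes. Many mRNAs also wait outside polysomes as silent particles, and cells change this share within minutes when nutrients, oxygen or hormones change. The mRNAs of the translation machinery are the textbook case: they begin with a C followed by a run of pyrimidines, the 5′ terminal oligopyrimidine (TOP) tract, through which the growth-regulating kinase mTOR sets whether they enter polysomes. In the late fetal lung, cells that store surfactant for the first breath also prepare for clearing lung liquid and for a rise in oxygen.

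The ratio reported here is the log2 signal in polysomal RNA minus that in total RNA of the same lysate. A ratio of -1 means that the polysomal signal was 2-fold lower. It is relative, because each array was loaded with the same amount of RNA and scaled to the same mean, so it gives no percentage of an mRNA's copies on polysomes. A gene or probe set is said to rise or fall, or to be higher or lower, where the adjusted p of limma was under 0.05, with lysate as a block. Numbers after ± are SE for a ratio and SD over 3 arrays for a signal.

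The labelled tissue was checked against markers. The 7 lung epithelial markers on the array summed to a signal of 22886 to 28723 in total RNA and 20777 to 25221 in polysomal RNA. The lysates differed in what else they held. In lysate 2, 8 genes of plasma proteins made by liver (A2m, Afp, Alb, Apoc1, Fgg, Gc, Serpina1 and Ttr) had a signal more than 4-fold above that of any other FD22 array in both arrays, whereas 0 genes stood out in this way in lysate 1 or 3. Albumin (Alb) read 103, 5662 and 147 in the 3 total arrays and 31.6, 4892 and 47.2 in the polysomal arrays. Of the 8 genes, only Alb was called (-1.10 ± 0.22, adjusted p 0.00321), a call that ended without the lysate block (adjusted p 0.61) and that its second probe set did not share (-0.68, adjusted p 0.10). Heart markers (Myh6, Nppa and Tnnt2) summed to 1349, 561 and 2209 in total RNA and to 1865, 394 and 3590 in polysomal RNA, lowest in lysate 2 and highest in lysate 3. Red cell markers (3 of 4 measured) summed to 8017, 9103 and 12102 in total RNA and 5174, 6900 and 6254 in polysomal RNA. In such bulk samples, fewer cells of a type and less RNA per cell cannot be told apart. The part of these admixtures in the ratios was not tested beyond leaving out each lysate. Where this moved a list's count by over 1.5 times, the count is given.

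Of 21675 probe sets above the detection filter, 2347 (10.8%) were higher and 3306 (15.3%) were lower on polysomes. Large differences lay mostly on the lower side: 828 of the 1006 called probe sets that differed by more than 2-fold were lower, and 178 were higher. Of the called probe sets, 5571 had the same sign in all 3 lysates. The 3 polysomal arrays lay wholly above or below the 3 total arrays for 6407 probe sets (29.6%), of which 4322 were also called.

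Counted with 1 probe set per gene, 1729 of 11590 genes (14.9%) were higher and 1390 (12%) were lower. The median gene had a ratio of 0.01, and the 10th and 90th percentiles were -0.58 and 0.54. The balance of directions depended on the scaling of the arrays. The polysomal arrays had lower medians (56.8, 61.0 and 57.5) than the total arrays (66.1, 69.3 and 73.5). When the median of every array was set equal, the median probe set ratio moved up by 0.23, and 5078 probe sets were higher and 1505 lower. Quantile normalization moved it by 0.10 and gave 2700 higher and 2376 lower. The share of calls on the higher side was thus 41.5% as deposited, 77.1% after median centring and 53.2% after quantile normalization, and 3852 and 4192 of the original calls kept their direction. Without the lysate block, 3329 probe sets were called instead of 5653. Leaving out lysate 1, 2 or 3 left 4714, 3475 and 3059 calls, so that lysates 2 and 3 each moved the count by over 1.5 times.

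**Figure D1:**
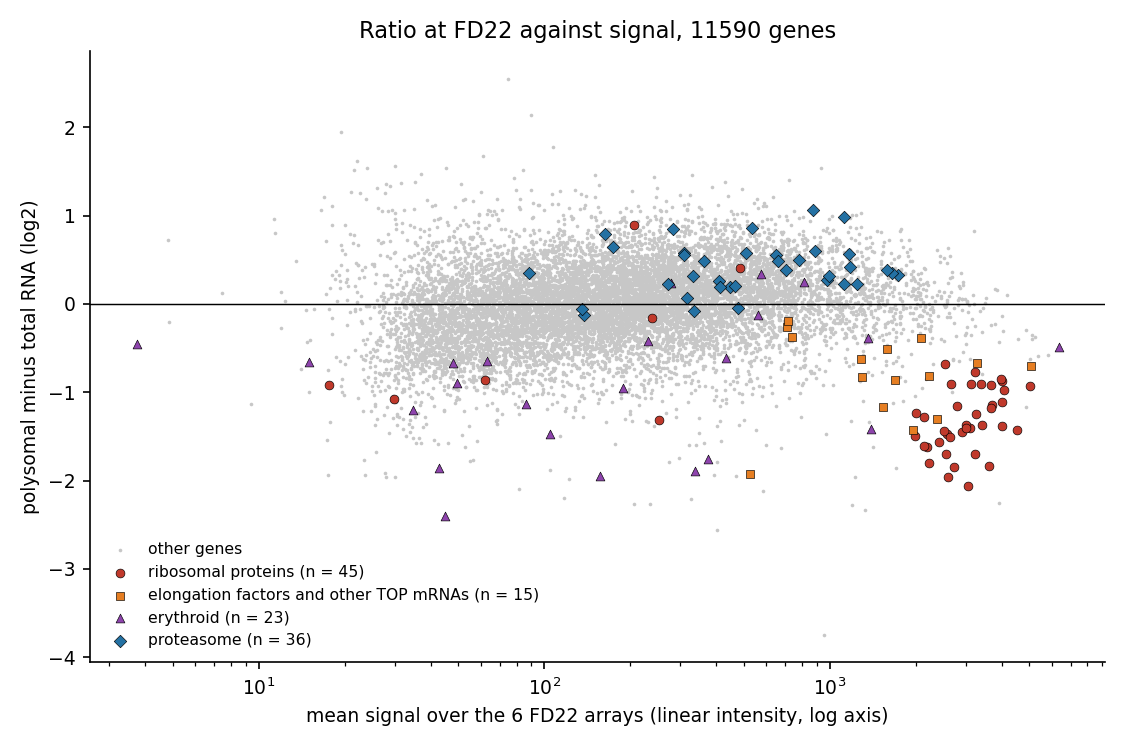
Each point is 1 of 11590 genes, with the mean signal of its probe set over the 6 FD22 arrays on a log axis and its log2 ratio of polysomal over total RNA on the vertical axis. Coloured points mark ribosomal proteins, other TOP mRNAs, erythroid genes and the proteasome. Ribosomal protein genes sit at the bright end and below 0, with a median of -1.28, and proteasome genes lie above 0 with a median of 0.37.

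Among 331 genes named by a rule (the extreme genes of the whole comparison and of each list), 253 were called, and 136 of these kept the call under all 13 alternative settings. Leaving out lysate 1, 2 or 3 ended 41, 57 and 67 of the 253 calls. A gene given with a call below belongs to these 136 unless its exception is stated. These settings keep the same probe set. Of the genes given below with a call, Gpx4, Hnrnpa1, Idi1, Stard4 and Dst also had a probe set of the opposite sign that did not pass. Apln, Aqp1, Emp2, H2ac25, Icam2, Myh6, Nap1l1, Pdia3, Racgap1 and Vegfa had one of the same sign that did not pass. The sequence lines below give the start of some of these mRNAs, since the first bases define the TOP class. The counts of each list below stand against the shares over all genes, 14.9% higher and 12% lower. Over the 41 gene lists described below, median centring raised the number of higher members by over 1.5 times in 25 lists and cut the number of lower ones in 23. Without the lysate block the higher count shrank that much in 17 lists and the lower count in 19.

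Brightly detected genes were the ones most often depleted. Of the 194 genes whose mean signal exceeded 2000, 40.2% were lower on polysomes, against 9.6% to 13.0% in the dimmer classes. Ribosomal protein genes made up 37 of the 194, and among the other 157 the share was 26.1%. A signal near the top of the scale can also be compressed on such arrays, and that part was not tested.

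The genes with the lowest ratios, taken among called genes with a mean signal over 200 in the higher group and arrays that did not overlap, came from several classes. Myh1, a fast myosin heavy chain of skeletal muscle, read 2035, 1754 and 1542 in total RNA and 110, 100 and 183 in polysomal RNA, a ratio of -3.74 ± 0.25 (adjusted p 5.29e-07). Its 5 probe sets gave ratios from -1.57 to -3.74, and all were called. The polysomal values were far below the total values in each lysate, by 13.4-fold in the mean ratio.

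Selenow, a small selenoprotein, read 760, 797 and 514 in total RNA against 159, 110 and 75.7 on polysomes (-2.56 ± 0.14, adjusted p 2.56e-07). H19, an imprinted noncoding RNA that is abundant in fetal tissue, read 2156, 2437 and 2092 against 413, 514 and 395 (-2.33 ± 0.16, adjusted p 8.04e-07). The arrays of both genes separated without overlap, and the polysomal values of H19 varied little from lysate to lysate. COX2, a cytochrome oxidase subunit encoded in the mitochondrial genome and made on mitochondrial ribosomes, read 5400, 6311 and 7807 against 1530, 1141 and 1386 (-2.26 ± 0.18, adjusted p 2.19e-06). A second mitochondrially encoded subunit, COX1, chosen after its values were seen, read 5650, 6573 and 8118 against 3065, 2840 and 3017, with a ratio of -1.17 ± 0.13.

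Pla2g1b, a secreted phospholipase A2, read 1702, 1422 and 2821 in total RNA and 567, 249 and 413 on polysomes (-2.27 ± 0.27, adjusted p 7.42e-05). Its ratio was -0.25 at FD19 and -2.23 at P1, but the difference between FD22 and FD19 did not pass the test (adjusted p 0.22). The remaining genes among the 12 lowest by this rule were Snhg11 (-2.26), a noncoding host of small nucleolar RNAs, Rbm38 (-2.26), which binds RNA, LOC100911177 (-2.21), Smim27 (-2.12), Rpl37a, Sv2b (-1.96), which belongs to a family of vesicle glycoproteins, and Rplp0. The total signals of Sv2b varied widely, at 3846, 809 and 1422, while its polysomal signals were 528, 285 and 486.

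The 12 highest called genes by the same rule on signal and overlap had ratios from 1.23 to 1.54. Ppic, a cyclophilin that helps proteins fold in the secretory pathway, read 484, 515 and 417 in total RNA and 1224, 1683 and 1272 on polysomes (1.54 ± 0.14, adjusted p 6.37e-06). Gadd45b, a stress-inducible growth-arrest gene, read 391, 384 and 376 against 1267, 722 and 1174 (1.404 ± 0.18, adjusted p 0.000139). In each lysate the polysomal value exceeded every total value, and the total values of Gadd45b lay within a narrow band.

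Ndufs4, a subunit of respiratory complex I, read 227, 241 and 235 in total RNA and 761, 507 and 606 on polysomes (1.38 ± 0.24, adjusted p 0.00133). The others by this rule were Inka1 (1.46), an inhibitor of the kinase PAK4, Btd (1.46), the enzyme that recycles biotin, Kcne2 (1.44), an accessory potassium channel subunit, Mrps31 (1.35), of the mitochondrial ribosome, Tmem252 (1.33), Nipsnap3b (1.31), the small GTPase Arf2 (1.30), Trappc6a (1.28), of a vesicle tethering complex, and Mlc1 (1.23), a membrane protein. The total signal of Btd in lysate 3 (68.2) was well below those of the other lysates (245 and 261), and its polysomal signals were 446, 556 and 396.

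**Figure D2:**
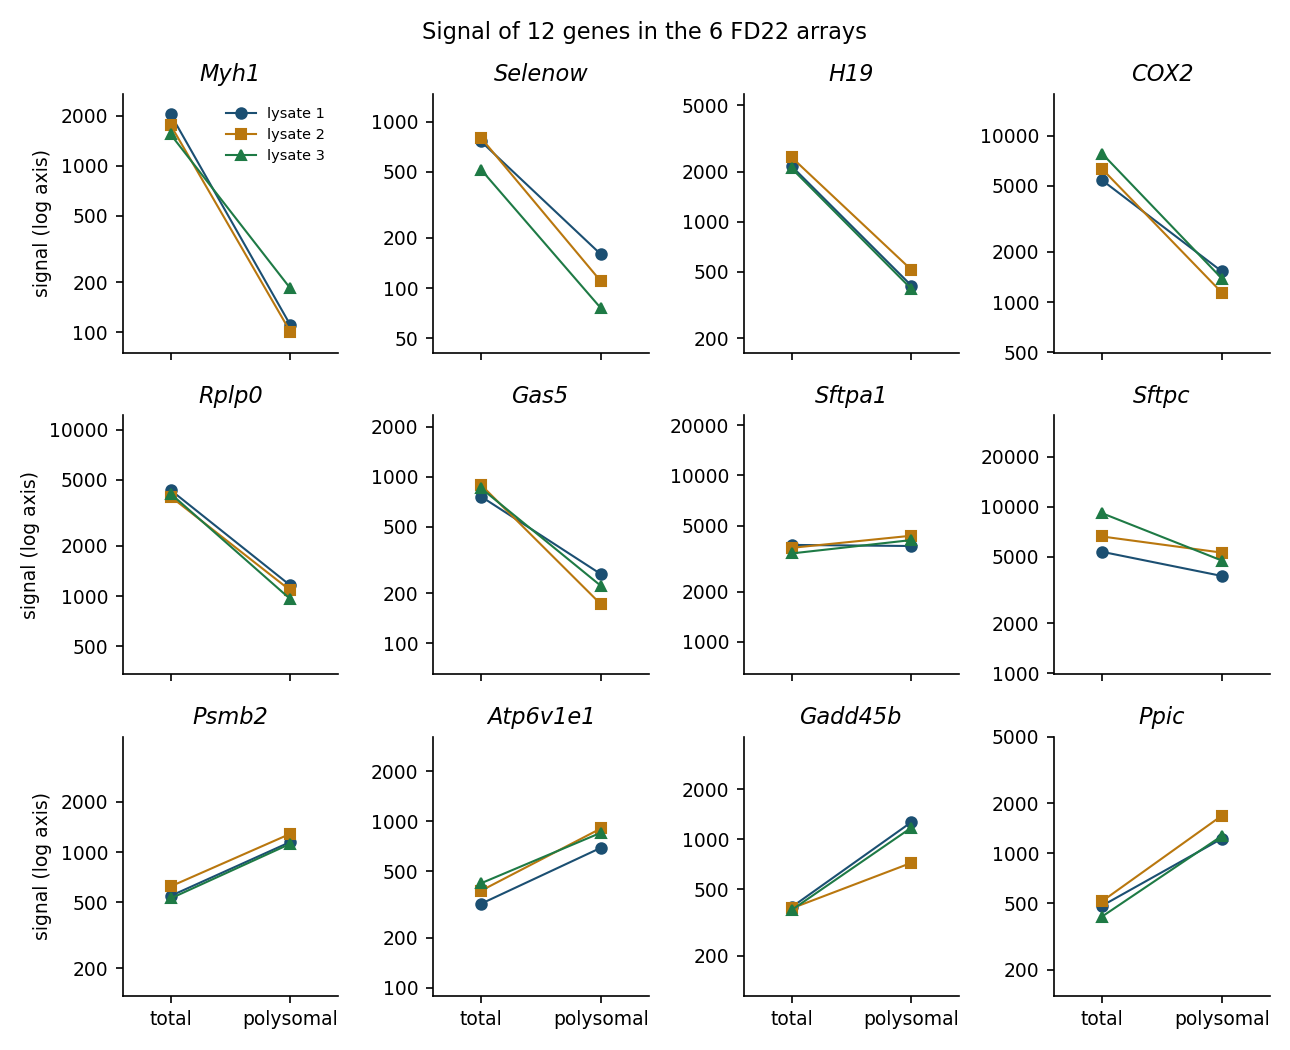
Signals of 12 genes in the 6 FD22 arrays, on log axes that each span the same 36-fold range, with a line joining the total and the polysomal array of each lysate. The lines of Myh1, Selenow, H19, COX2, Rplp0 and Gas5 fall in all 3 lysates, those of Psmb2, Atp6v1e1, Gadd45b and Ppic rise, and those of Sftpa1 stay nearly level.

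Nearly all measured components of the cytosolic ribosome were lower on large polysomes. Of 45 measured ribosomal protein genes, 42 were lower and 2 were higher, with a median ratio of -1.28 against 0.01 over all genes and 12% of all genes lower. The median in lysates 1, 2 and 3 was -0.95, -1.33 and -1.48. Rplp0, the stalk protein of the large subunit, read 4335, 3958 and 4125 in total RNA and 1158, 1081 and 958 on polysomes (-1.96 ± 0.10, adjusted p 1.77e-07). Rpl37a, another large subunit protein, read 4029, 5015 and 5715 against 1203, 1254 and 1035 (-2.06 ± 0.13, adjusted p 4.98e-07). In neither gene did a polysomal value come within 2-fold of a total value.

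Small subunit members behaved alike. Rps28 had a ratio of -1.85 ± 0.16, with 3782, 4336 and 4700 in total RNA and 1494, 1044 and 1055 on polysomes. Rps16 had a ratio of -1.83 ± 0.14, from 4683, 5729 and 6524 to 1640, 1500 and 1574. Rpl41, which encodes one of the shortest proteins known, read 4044, 4625 and 6243 against 1541, 1487 and 1484 (-1.70 ± 0.13). The exceptions in this list were Rps4y2 (0.89 ± 0.15), a variant of a small subunit protein, and Rpl7l1 (0.41 ± 0.10, adjusted p 0.00804), a ribosome assembly factor. The call of Rpl7l1 ended without lysate 2 (adjusted p 0.065) and with the FD22 arrays alone. Rps27l, at 238, 251 and 233 against 385, 192 and 134, did not pass the test (-0.16 ± 0.25, adjusted p 0.669). The share of ribosomal protein genes among the brightest genes is given above, and quantile normalization moved their median to -0.92.

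The TOP class outside the ribosome moved the same way. This list includes the noncoding RNA Gas5, which is given again below. Of its 15 measured members, 12 were lower and 0 higher, with a median of -0.70. Elongation factor subunits were among them: Eef1g read 2827, 3064 and 2694 in total RNA and 1093, 1048 and 1037 on polysomes (-1.43 ± 0.10), Eef1b2 had a ratio of -0.86 ± 0.10 and Eef2, which moves the ribosome along the mRNA, one of -0.82 ± 0.10. Rack1, a scaffold on the small subunit, read 3180, 3359 and 3624 against 1468, 1302 and 1334 (-1.30 ± 0.11). Eef1a1 (-0.70 ± 0.09) and the intermediate filament gene Vim (-0.67 ± 0.09) were lower as deposited, but both calls ended after quantile normalization, at -0.12 and -0.17. Hnrnpa1 (-0.63 ± 0.12) lost its call without the lysate block (adjusted p 0.14) and Nap1l1 (-0.51 ± 0.09) after median centring (adjusted p 0.053). Members that did not pass were Eef1d (-0.37), Cct2 (-0.26) and the brighter probe set of Eif4b (-0.19). The second probe set of Eif4b read 657, 564 and 571 in total RNA and 254, 270 and 252 on polysomes and was lower (-1.19, adjusted p 3.17e-05).

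The starts of some of these genes were read from RefSeq promoters of the rat assembly GRCr8, 10 bases before the annotated start and 15 from it, in the sense of the gene. A tract was defined as a C followed by at least 4 letters that are each C or T, beginning within 5 bases of the start, and it is shown in capitals. The first 6 lines show genes with such a tract and low ratios. The next 3 show a low ratio with no tract in this window, and the last 2 show genes with high ratios, also with no tract. These lines are picked examples and show no rule. Rps4y2, whose start is not printed, had a tract and a ratio of 0.89.
Rpl37a: cccgttgcgtCTCTTCCTCTTCggg
Rplp0: caccgcaCTTCTCTCgccaggcgtc
Rpl35: cttcctCTTTCTCTCgaaccgggcg
Rps28: ccctgctcacgtgaCTCCTCTCCgc
Eef1b2: ggccggtcccggCCCTTTTTCTCCC
Eif3f: cccttccgttctagCCTCTCTCTTT
Rpl41: ctcggaagtgacgacaccaagcacg
Gas5: tttcggagctgtgaggcgaagctga
Atf4: gtgtcgccgccatttctgcttgctc
Psmb2: ctggtgaggccgcgtacccgggaag
Gadd45b: cactccgcgtcaacccgggatccgt

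Their positions were chr9:81748081-81748105 (plus strand) for Rpl37a, chr12:46718376-46718400 (minus) for Rplp0, chr3:43165907-43165931 (minus) for Rpl35, chr7:15311319-15311343 (minus) for Rps28, chr9:72074081-72074105 (plus) for Eef1b2 and chr1:172369052-172369076 (plus) for Eif3f. Those of the others were chr7:1563483-1563507 (minus) for Rpl41, chr13:75836953-75836977 (plus) for Gas5, chr7:113684671-113684695 (plus) for Atf4, chr5:144255048-144255072 (plus) for Psmb2 and chr7:9430704-9430728 (minus) for Gadd45b. Each window spans the annotated transcription start, with the first exon in its second stretch.

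A tract was found for 21 of 41 ribosomal protein genes matched to the promoter table (51.2%), against 17.0% of all 27457 promoters. Ribosomal protein genes with a tract had a median ratio of -1.28 and those without one of -1.18. Of the other TOP mRNAs, 6 of 12 matched genes held the tract, with a median of -0.61 against -1.06 for those without it. Among the remaining 9564 measured genes, the median was -0.02 with a tract and 0.03 without. Where it was not found, this says only that these letters are not near the annotated start.

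**Figure D3:**
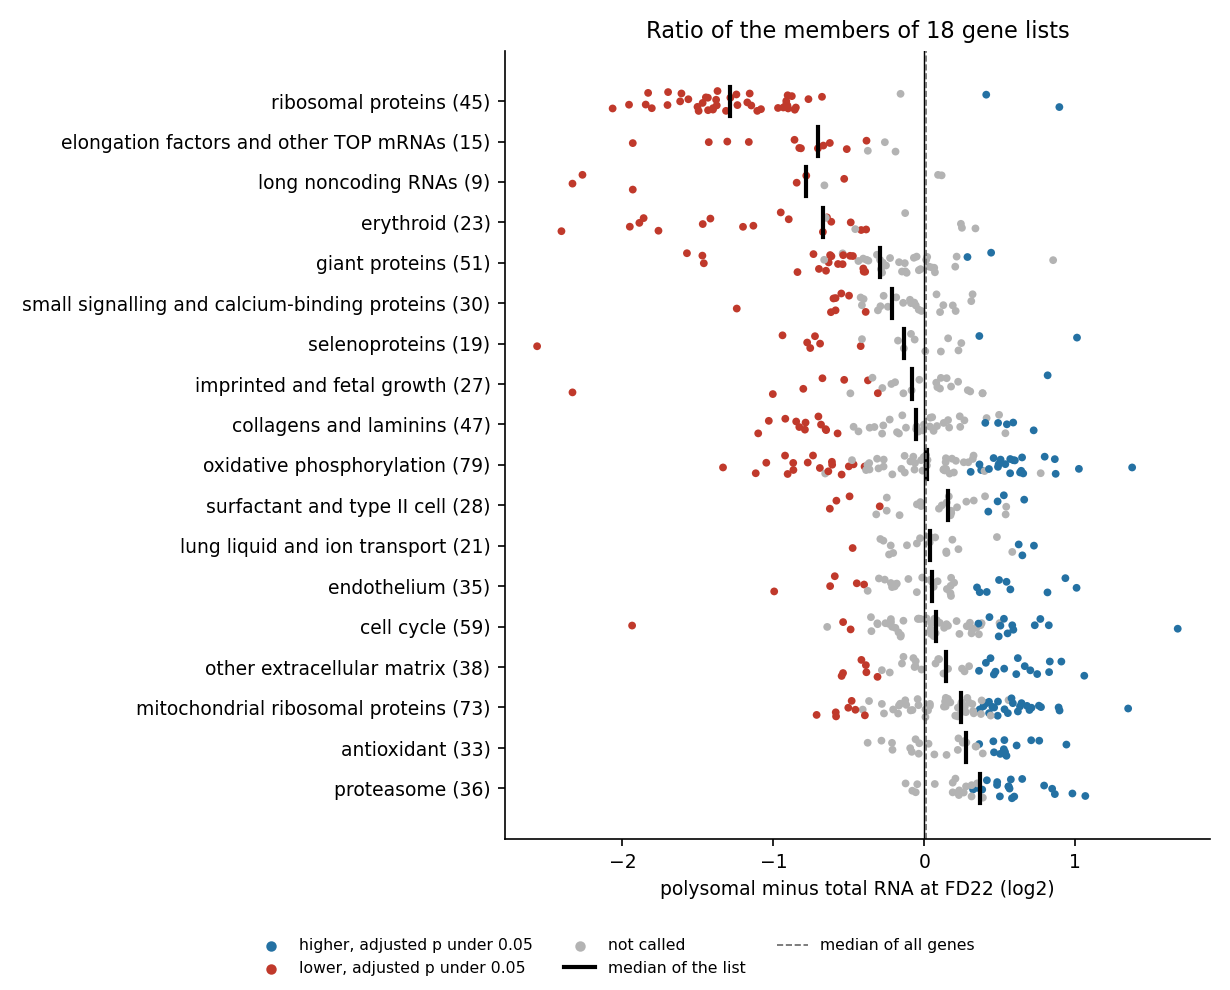
Log2 ratios of polysomal over total RNA at FD22 for the members of 18 gene lists, 1 point per gene, coloured by call, with a black bar at each list's median and a dashed line at the median of all genes. The ribosomal protein list lies lowest among these medians at -1.28 and the proteasome list reaches 0.37, while most other lists straddle 0.

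Initiation factors, which recruit the ribosome to an mRNA, were called in both directions. Of 49 measured, 7 were higher (14.3%) and 10 were lower (20.4%), and the median was 0.04. Over all genes 14.9% were higher and 12% lower, so the higher share was that of genes in general. The lower ones included several subunits of the eIF3 complex: Eif3f (-1.16 ± 0.12), Eif3a (1081, 1034 and 1041 in total RNA against 585, 433 and 561, -1.003 ± 0.13) and Eif3h (-0.83 ± 0.14). A second probe set of Eif3a did not pass (-0.53, adjusted p 0.153). Eif2a had a ratio of -0.95 ± 0.13, and Eif4ebp2, which holds back the cap-binding factor, one of -1.02 ± 0.15. On the higher side stood the helicase Eif4a3 (0.56 ± 0.12), which ended without lysate 3 (adjusted p 0.058), and Eif2b1 (0.41 ± 0.12), which ended without lysate 2. Leaving out lysate 2 gave 3 higher and 7 lower, leaving out lysate 3 gave 3 and 9, and median centring gave 14 and 7.

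The mitochondrial ribosome, encoded in the nucleus and made in the cytosol, did not follow the cytosolic ribosome. Of its 73 measured proteins, 24 were higher and 7 lower, with a median of 0.24. Mrpl41 read 433, 559 and 546 in total RNA and 803, 1052 and 1011 on polysomes (0.89 ± 0.11, adjusted p 0.000112). Mrps23 read 327, 352 and 261 against 617, 618 and 519 (0.90 ± 0.12, adjusted p 0.000144). Every polysomal value of these genes exceeded every total value. Among those that were lower, Mrpl42 (-0.71) and Mrpl43 (-0.50) lost the call without lysate 2, and Mrpl43 also after median centring (-0.27). The list was less even across lysates, with medians of 0.44, 0.11 and 0.13, and the counts were 15 higher and 9 lower without lysate 1, 16 and 1 without lysate 2 and 21 and 3 without lysate 3. After median centring they were 40 and 1.

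Genes of oxidative phosphorylation divided by member. Of 79, 22 were higher (27.8%) and 17 lower (21.5%), with a median of 0.02. The higher ones were led by complex I subunits: after Ndufs4 came Ndufb6 (1.02 ± 0.13), Ndufc2 (0.87 ± 0.15) and Ndufs3 (280, 299 and 258 in total RNA against 537, 505 and 493, 0.86 ± 0.11). Those lower included the accessory subunits Uqcrh of complex III (1785, 2035 and 1926 against 1384, 555 and 561, -1.33 ± 0.25), Cox8a (-1.12 ± 0.17), Cox6b2 (-1.05) and Cox7c (-0.92 ± 0.18) of complex IV. For Uqcrh, Cox8a and Cox7c the polysomal signal of lysate 1 was clearly above those of lysates 2 and 3. The list's median was 0.33 in lysate 1, -0.03 in lysate 2 and -0.22 in lysate 3. The balance turned to 16 higher and 23 lower without lysate 1. The count was 16 and 11 without lysate 2, 18 and 10 without lysate 3, and 29 and 10 after median centring.

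The proteasome, which degrades tagged proteins, was the most one-sided list above 0. Of 36 subunits, 19 were higher and 0 lower, with a median of 0.37 and medians of 0.36, 0.29 and 0.52 in the 3 lysates, against 14.9% higher over all genes. Psmb2, a catalytic core subunit, read 545, 622 and 526 in total RNA and 1151, 1288 and 1122 on polysomes (1.07 ± 0.09, adjusted p 5.79e-06). Psma2 read 703, 870 and 685 against 1382, 1613 and 1459 (0.98 ± 0.10, adjusted p 1.29e-05). The 2 groups of arrays were far apart in both genes. The regulatory particle was represented by Psmd8 (0.86 ± 0.13) and Psmd13 (0.85 ± 0.15), while Psmb10 (-0.12), Psmd4 (-0.08), Psmd1 and Psmc3 had ratios just below 0 and did not pass. Without lysate 3, 11 subunits were higher, and after median centring 30 were.

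Noncoding RNAs are not translated, and their ratios were set beside those of the mRNAs. Of 109 measured genes that RefSeq lists as long noncoding RNA, 44 were lower, 0 higher and 65 not called. These genes were dim, with median signals of 68.2 in total RNA and 46.0 in polysomal RNA. Their median ratio was -0.61, less low than the -1.28 of ribosomal protein genes. With a polysomal median near the filter level of 40.8, this does not show how much noncoding RNA the polysomal samples held. The medians of lysates 1, 2 and 3 were -0.31, -0.55 and -0.93, and 72 of the genes (66.1%) lay below 0 in all 3 lysates, against 25.8% of all genes. Without lysate 2 the count of lower genes was 29, without lysate 3 it was 20, and after median centring it was 23. Gas5, a host of small nucleolar RNAs that is itself a TOP RNA, read 762, 894 and 854 in total RNA and 261, 172 and 222 on polysomes (-1.93 ± 0.15, adjusted p 1.74e-06). Oip5-as1 had a ratio of -0.85 ± 0.12. Of 9 well-known long noncoding RNAs, 6 were lower, and Miat (0.11) and Tug1 (0.09) were among those that did not pass. Meg3, an imprinted noncoding RNA, read 1572, 369 and 971 against 1142, 305 and 531 (-0.53 ± 0.16, adjusted p 0.0242). That call ended without lysate 1 or 3, without the lysate block, and after median centring.

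Most red cell genes lay below 0. Of 23 genes of the erythroid line, 17 were lower and 0 higher, with a median of -0.67 and lysate medians of -0.75, -0.64 and -0.86. Klf1, the master regulator of erythroid genes, was dim, at 73.7, 84.6 and 75.8 in total RNA and 5.1, 21.3 and 8.3 on polysomes (-2.40 ± 0.26). Ahsp, the chaperone of alpha globin, read 506, 520 and 564 against 189, 150 and 94.1 (-1.89 ± 0.18, adjusted p 1.1e-05), and the globin gene Hbg1 171, 235 and 355 against 41.1, 56.9 and 85.4 (-1.95 ± 0.18). Epb42 (-1.86 ± 0.25), of the red cell membrane skeleton, was lower as well. Without lysate 3, 12 genes were lower and 1 was higher, and after median centring 12 and 3. The adult globin Hbb, by contrast, read 5675, 6685 and 10030 against 4244, 5850 and 5556 (-0.49 ± 0.11, adjusted p 0.0067). This call ended without lysate 3 (adjusted p 0.076) and without the lysate block (adjusted p 0.10) and after median centring, and its ratio turned to 0.07 under quantile normalization. The sums of red cell markers given above were lower in polysomal than in total RNA of each lysate, and the part of red cells trapped in the lung was not tested.

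Iron-responsive element mRNAs carry a hairpin to which iron regulatory proteins bind, and in a leader that binding blocks ribosome entry. Of 6 measured, 2 were lower and 4 did not pass. Alas2, the first enzyme of heme synthesis in red cells, read 2069, 2201 and 1814 in total RNA and 803, 878 and 607 on polysomes (-1.42 ± 0.11, adjusted p 1.63e-06). Slc40a1, the iron exporter ferroportin, read 248, 329 and 217 against 112, 139 and 134 (-0.997 ± 0.16, adjusted p 0.000604). The groups did not overlap in either gene. Tfrc (-0.22), Epas1 (-0.22), Slc11a2 (-0.04) and Cdc14a (-0.03) were not called. Alas2 also belongs to the erythroid list.

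Myosins and other very large proteins, whose coding regions can hold many ribosomes, tended to lie below 0. A part of coding length in this was not tested. Of 51 giant proteins, a list that does not hold Myh1, 18 were lower and 2 higher, with a median of -0.29. The nonmuscle and smooth muscle myosin heavy chains were the lowest: Myh9 read 1202, 1340 and 1744 in total RNA and 661, 422 and 464 on polysomes (-1.47 ± 0.15, adjusted p 2.14e-05), Myh10 had a ratio of -1.57 ± 0.20 and Myh11 one of -1.46 ± 0.19. Flna, an actin crosslinker, had a ratio of -0.84 ± 0.11. Macf1 (0.29) and Dst (0.44), which link the cytoskeletal filaments, were on the other side, but both calls ended without lysate 1 and without the lysate block, and that of Macf1 also without lysate 2 or 3. Without lysate 1 the count was 19 lower and 0 higher, without lysate 2 it was 7 and 1, without lysate 3 12 and 1, without the lysate block 9 and 0, and after median centring 7 and 3. Heart myosin Myh6 read 528, 302 and 1063 against 272, 96 and 240 (-1.55 ± 0.19) and is one of the heart markers whose sums differed between lysates.

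Small signalling and calcium-binding proteins have short coding regions. Of 30 measured, 8 were lower and 0 higher, with a median of -0.21. S100a13 read 293, 292 and 248 in total RNA and 186, 113 and 69.1 on polysomes (-1.24 ± 0.23, adjusted p 0.00197). The lysates disagreed in this list: the medians were 0.19, -0.15 and -0.61, and 12 members were lower without lysate 1, 3 without lysate 2 and 2 without lysate 3. Median centring turned the list to 3 higher and 2 lower, with a median of 0.02. A relation of the ratio with protein length over all genes was not analysed here.

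The extracellular matrix divided by family. Among 47 collagens and laminins, 12 were lower and 5 higher, with a median of -0.05. The basement membrane chains Col4a1 (3007, 2634 and 2750 in total RNA against 1710, 1316 and 1650, -0.85 ± 0.10) and Col4a2 (-1.10 ± 0.12) were lower, and Col27a1 too (-1.03). The laminin chain Lama5 was higher (865, 635 and 727 against 1239, 945 and 1168, 0.59 ± 0.11). Col1a1, the main fibrillar collagen, had a ratio of -0.70 ± 0.09 (adjusted p 0.000159), which ended at -0.24 under quantile normalization (adjusted p 0.14). After median centring 8 members were lower and 9 higher, and without lysate 1 or 3 the higher count was 3 and 2.

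Other matrix genes leaned the other way, with 15 of 38 higher and 6 lower and a median of 0.14. Mfap5, of elastic microfibrils, read 179, 288 and 159 in total RNA and 430, 412 and 438 on polysomes (1.06 ± 0.16, adjusted p 0.000379). Dpt, which binds collagen fibrils, read 2233, 1850 and 2944 against 3830, 4016 and 4421 (0.83 ± 0.12, adjusted p 0.000427), and so was higher although bright. Lum (0.83) lost its call without the lysate block. Elastin (Eln), the core of the elastic fibres that form the saccular walls, read 2291, 1818 and 1831 against 1612, 1402 and 1876 and did not pass (-0.28 ± 0.13, adjusted p 0.112). A second, dimmer probe set of Eln was lower, at 319, 83.8 and 242 against 208, 41.2 and 97.8 (-0.94, adjusted p 0.000459). Without lysate 2, 8 of these genes were higher and 3 lower. Without lysate 3 the numbers were 9 and 5, and without lysate 1 they were 13 and 2. Median centring gave 20 and 0.

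Selenoproteins insert selenocysteine at a stop codon and need a dedicated elongation factor. Of 19 measured, 7 were lower and 2 higher, with a median of -0.14. Besides Selenow, the glutathione peroxidases Gpx1 (1796, 2139 and 1797 in total RNA against 1464, 1224 and 762, -0.78 ± 0.14) and Gpx2 (-0.94 ± 0.19) were lower, whereas Selenos, of the endoplasmic reticulum, read 821, 774 and 774 against 1662, 1755 and 1392 (1.01 ± 0.14, adjusted p 0.000253). Gpx4 (-0.76 ± 0.17) lost its call without the lysate block (adjusted p 0.057) and without lysate 3 (adjusted p 0.062). In total 7 were lower and 1 higher without lysate 1, 4 and 1 without lysate 2, 3 and 2 without lysate 3, and 6 and 5 after median centring.

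Upstream open reading frames hold ribosomes back from the main frame until stress kinases act. Of 25 mRNAs with such frames, 4 were lower and 4 higher (16% each, against 12% and 14.9% over all genes). Atf4, the stress transcription factor and best-studied case, read 646, 537 and 478 in total RNA and 395, 265 and 254 on polysomes (-0.87 ± 0.11, adjusted p 0.000128). Uchl1, a neuronal ubiquitin hydrolase, was the highest at 1.54. Ddit3 (-0.54) did not pass. Leaving out lysate 1 left 5 lower and 2 higher, leaving out lysate 2 left 1 and 2, and leaving out lysate 3 left 2 and 1, and median centring gave 1 lower and 8 higher. Antizyme and other polyamine genes gave 1 call among 8 members. That gene was Oaz1, whose mRNA is read with a frameshift, at 2637, 2871 and 2815 against 2324, 2336 and 1714 (-0.40 ± 0.10, adjusted p 0.014). It ended without lysate 3 (adjusted p 0.13), after quantile normalization and after median centring. Without lysate 1, 2 of the list were lower, and median centring gave 2 higher and 0 lower. Odc1, the target of antizyme, had a ratio of 0.16 ± 0.14 and did not pass.

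Genes of surfactant and the type II cell were called in both directions, and several of the calls depended on the scaling. Of 28 measured, 4 were higher and 4 lower (14.3% each), with a median of 0.15. These shares lay near those over all genes, 14.9% higher and 12% lower. Sftpa1, the main surfactant collectin, read 3824, 3672 and 3399 in total RNA and 3767, 4343 and 4089 on polysomes (0.16 ± 0.10, adjusted p 0.238). Sftpd read 3286, 3592 and 3747 against 3295, 4394 and 4378 (0.17 ± 0.15, adjusted p 0.412). The arrays overlapped in both genes as deposited, yet quantile normalization put them at 0.63 and 0.64, with adjusted p 0.0002 and 0.0082. Median centring also called Sftpa1 (0.39, adjusted p 0.013).

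Sftpc, the hydrophobic surfactant protein made by type II cells alone, read 5359, 6622 and 9139 in total RNA and 3836, 5298 and 4748 on polysomes (-0.58 ± 0.12, adjusted p 0.00392). This call ended without the lysate block (adjusted p 0.066) and under quantile normalization, where the ratio was -0.03. The probe sets of Sftpb, the other hydrophobic protein, disagreed. The brighter read 3684, 4077 and 4350 against 3860, 4793 and 4319 (0.10 ± 0.12, adjusted p 0.586) and was called under quantile normalization (0.63, adjusted p 0.0026). The second read 3161, 728 and 2564 against 1055, 128 and 497 (-2.13 ± 0.17, adjusted p 2.95e-06), lowest in lysate 2 in both kinds of RNA.

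Other type II genes included Cd36 (702, 957 and 681 in total RNA against 914, 1579 and 1264, 0.66 ± 0.13), a fatty acid receptor, which was higher. Nkx2-1, the transcription factor that switches on surfactant genes, was lower (1271, 1115 and 1169 against 928, 806 and 786, -0.50 ± 0.09, adjusted p 0.00194), a call that ended after median centring (adjusted p 0.067). Quantile normalization gave 8 higher and 2 lower in this list, and median centring 11 and 1. Without lysate 3 the count was 1 higher and 2 lower, without lysate 2 it was 2 and 3, and without lysate 1 it was 4 and 2.

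Genes of other cells of the airspace were called in both directions, against 14.9% higher and 12% lower over all genes. Of 17 type I cell genes, 1 was higher (5.88%) and 2 lower (11.8%), and the median was 0.00. Emp2 (0.37) ended without lysate 2 or 3, and 1 was lower without lysate 1 or 3. Quantile normalization gave 4 higher and 1 lower, and median centring 6 and 0. Among 15 genes of airway club and ciliated cells, 2 were higher (13.3%) and 3 lower (20.0%), with 1 higher whichever lysate was left out. Under quantile normalization 4 were higher and 2 lower, and under median centring 3 and 1. Sec14l3, an airway lipid-binding protein, read 236, 130 and 262 in total RNA and 103, 73.4 and 160 on polysomes (-0.87 ± 0.16, adjusted p 0.00162). Tppp3, a microtubule protein of cilia, read 943, 661 and 880 against 1428, 1065 and 1485 (0.68 ± 0.11, adjusted p 0.000799). Scgb1a1, the main secretory protein of club cells, read 5239, 5328 and 6635 against 4240, 4578 and 4597 (-0.35 ± 0.10, adjusted p 0.0196), but this turned to 0.21 under quantile normalization and ended without lysate 3.

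Liquid clearance at birth relies on the epithelial sodium channel and the sodium pump. Of 21 genes of ion and water transport, 3 were higher (14.3%, against 14.9% over all genes) and 1 lower (4.76%, against 12%). The channel subunits Scnn1a (694, 484 and 544 in total RNA against 661, 393 and 552, -0.12 ± 0.17) and Scnn1g (-0.22 ± 0.19) did not pass. Scnn1b (144, 174 and 239 against 139, 116 and 134, -0.47 ± 0.16, adjusted p 0.0401) ended without lysate 2, without lysate 3, without the lysate block, and under quantile or median scaling. Atp1b3, a sodium pump subunit, read 745, 656 and 746 against 1070, 1092 and 1213 (0.65 ± 0.11, adjusted p 0.00109). The water channel Aqp1 was higher at 0.62 ± 0.16, a call that ended without lysate 2 (adjusted p 0.062) or lysate 3 (adjusted p 0.076). Without lysate 2, 1 gene of the list was higher and 0 lower, and without lysate 3 the numbers were 2 and 0. Median centring gave 6 and 0.

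Vessel growth is tied to alveolar formation at this age. Among 13 growth factors and receptors, 2 were higher and 2 lower (15.4% each, against 14.9% and 12% over all genes). There was 1 higher without lysate 2 or 3, and 4 were higher and 1 lower after median centring. Vegfb read 380, 314 and 233 in total RNA and 290, 120 and 80.5 on polysomes (-1.07 ± 0.20, adjusted p 0.00176). Vegfa read 1859, 997 and 1505 against 1231, 842 and 1066 (-0.44 ± 0.10, adjusted p 0.00579), a call that ended without the lysate block (adjusted p 0.095) and after median centring (adjusted p 0.14). Their arrays overlapped between groups, and within each lysate the polysomal value was the lower.

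Endothelial genes were 9 higher (25.7%) and 5 lower (14.3%) among 35. Apln, a peptide of sprouting vessels, read 262, 196 and 216 in total RNA and 499, 360 and 448 on polysomes (0.93 ± 0.12), and the adhesion gene Icam2 rose by 0.82 ± 0.12. Nos3, which makes the vasodilator nitric oxide, was dim, at 55.2, 51.8 and 47.8 against 25.9, 19.9 and 23.9 (-0.99 ± 0.21, adjusted p 0.00392). Of this list 6 were higher and 2 lower without lysate 1, 4 and 2 without lysate 2, and 4 and 1 without lysate 3. The split was 14 and 1 after median centring and 7 and 7 after quantile normalization.

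Among imprinted and fetal growth genes, 1 of 27 was higher and 7 were lower, H19 and Meg3 included. Igf2, the main fetal growth factor, read 1488, 1522 and 1441 in total RNA and 1046, 934 and 816 on polysomes (-0.67 ± 0.10, adjusted p 0.000356). Plagl1, a zinc-finger transcription factor, read 1958, 1981 and 1429 against 923, 1052 and 1072 (-0.80 ± 0.12), and Nnat had a ratio of -1.003 ± 0.16. Sgce was the gene above 0 that passed (0.82 ± 0.17). The arrays of Igf2 and Plagl1 did not overlap between the fractions. Without lysate 1 or 3, 4 genes of the list were lower, and without lysate 3, 2 were higher. Median centring turned the balance to 6 higher and 4 lower.

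Leukocyte genes gave 9 higher and 6 lower of 30. Those higher included class II antigen presentation and complement genes of macrophages: RT1-Bb (149, 176 and 168 in total RNA against 278, 332 and 372, 0.96 ± 0.13), Cd74 (0.72 ± 0.11) and C1qa (0.80 ± 0.11). Tyrobp (-1.04) and Fcer1g (-0.89), signalling adaptors with short coding regions, were lower, but both ended without lysate 3. The count was 5 and 3 without lysate 2, 5 and 0 without lysate 3, and 13 and 2 after median centring.

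Stress and immediate early genes, whose mRNAs turn over fast, were 6 higher and 9 lower of 46. Gadd45b, given above, was higher, and so was Gadd45g, which read 458, 329 and 248 in total RNA and 727, 786 and 720 on polysomes (1.14 ± 0.14, adjusted p 0.000123). Maff (1.08 ± 0.15), a small leucine zipper factor, was dim in both fractions. Zfp36, which destabilises cytokine mRNAs, was lower (886, 557 and 670 against 531, 368 and 442, -0.64 ± 0.12). Nr4a2 (-0.79) ended without lysate 2, and without that lysate 5 genes were higher and 4 lower. The balance also turned with the scaling, to 11 higher and 5 lower after median centring and 6 and 4 after quantile normalization.

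Hypoxia response genes were higher and lower near the shares over all genes (14.9% and 12%). They gave 5 higher and 5 lower of 36 (13.9% each), and 2 higher without lysate 2. The scaling moved this balance both ways, to 14 and 2 by median centring and to 4 and 7 by quantile normalization. Bnip3l, a mitophagy receptor, read 1970, 2008 and 2179 in total RNA and 1337, 1365 and 1176 on polysomes (-0.67 ± 0.11), and the adenylate kinase Ak3 had a ratio of -0.88 ± 0.16. A second probe set of each lay above 0 and did not pass, at 0.21 for Bnip3l (adjusted p 0.217) and 0.27 for Ak3 (adjusted p 0.147). The glycolytic enzyme Pgam1 was higher (0.49 ± 0.09). Glucocorticoid-responsive and clock genes gave 5 higher and 2 lower of 28, and 3 higher without lysate 2 or 3, and 12 and 2 after median centring. The metallothionein Mt2A read 688, 681 and 1064 against 289, 280 and 304 (-1.43 ± 0.18, adjusted p 0.000102), and Hsd11b1, which regenerates active glucocorticoid, read 1084, 1186 and 955 against 1614, 1912 and 1526 (0.64 ± 0.10, adjusted p 0.000394). The polysomal signal was lower than total for the first gene in all lysates, and higher for the second.

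In the antioxidant list the members that passed were higher: 13 of 33 were higher and 0 lower, with a median of 0.28. The list does not hold the glutathione peroxidases Gpx1, Gpx2 and Gpx4, which were lower and are given with the selenoproteins. The glutathione transferase Gsta1 read 420, 423 and 230 in total RNA and 642, 779 and 593 on polysomes (0.94 ± 0.14, adjusted p 0.000444), Gstp1 had a ratio of 0.76 ± 0.11, Mgst3 one of 0.71 ± 0.12 and the mitochondrial peroxidase Prdx3 one of 0.61 ± 0.10. Without lysate 3 the higher count was 6, and without lysate 1 it was 10 with 2 lower. Lipid and sterol synthesis genes gave 6 higher (16.7%, against 14.9% over all genes) and 0 lower of 36, with 3 higher without lysate 3. The sterol enzymes Idi1 (0.73 ± 0.12) and Fdps (0.56 ± 0.10) and the cholesterol carrier Stard4 (0.69 ± 0.12) were among them.

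Chaperones divided by gene. In the heat shock list, 7 of 25 were higher and 3 lower. Ahsa1, which activates Hsp90, read 394, 391 and 354 in total RNA and 815, 911 and 937 on polysomes (1.21 ± 0.12, adjusted p 1.26e-05), while Hsp90ab1 itself read 2691, 3009 and 2804 against 1448, 1850 and 2036 (-0.68 ± 0.12, adjusted p 0.00116) and Hspb7 had a ratio of -1.30 ± 0.17. Without lysate 3, 4 were higher. Of 34 endoplasmic reticulum chaperones, 9 were higher and 3 lower, with Erp29 at 0.71 ± 0.10 and Pdia3 at -0.71 ± 0.12. Their count was 4 and 2 without lysate 2, 5 and 3 without lysate 3, 17 and 2 after median centring and 5 and 4 after quantile normalization.

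The vacuolar proton pump, which acidifies lysosomes and the lamellar bodies of type II cells, gave 6 higher and 2 lower of 20. Atp6v1e1 read 320, 383 and 424 in total RNA and 693, 906 and 854 on polysomes (1.11 ± 0.12, adjusted p 2.42e-05), and Atp6v1c1 (0.64 ± 0.14) and Atp6v1d (0.46 ± 0.11) were higher too. With lysate 2 left out, 3 were higher and 0 lower, and without lysate 1 or 3, 1 was lower. Median centring gave 7 and 0. Smooth muscle and mesenchyme genes gave 8 higher and 4 lower of 32, and 14 and 1 after median centring. Tagln read 369, 380 and 236 against 653, 707 and 621 (1.03 ± 0.13, adjusted p 0.000108), and Myl9 616, 468 and 480 against 1294, 858 and 966 (0.98 ± 0.10, adjusted p 1.9e-05). Acta2 had a ratio of -0.47 ± 0.10 that ended without the lysate block (adjusted p 0.11) and after median centring (adjusted p 0.12). The contractile genes of 1 cell type thus lay on both sides of 0, Myh11 at the bottom and Tagln at the top. Tpm1 had opposite calls among its probe sets, from -0.99 to 0.97.

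Cell cycle genes gave 12 higher (20.3%) and 3 lower (5.08%) of 59. Cdk1 read 354, 552 and 337 in total RNA and 555, 935 and 589 on polysomes (0.73 ± 0.10, adjusted p 0.000251), and Racgap1, of cytokinesis, had a ratio of 0.82 ± 0.15. Cdc25b, the phosphatase that activates Cdk1, went the other way, at 706, 698 and 474 against 186, 152 and 138 (-1.94 ± 0.13, adjusted p 4.98e-07). Without lysate 2 the list had 8 higher and 1 lower, without lysate 3 it had 7 and 2, without the lysate block 5 and 1, and after median centring 22 and 1. Of 87 splicing and RNA-binding proteins, 18 were higher and 10 lower, and Snrpb read 889, 877 and 758 against 1436, 1928 and 1842 (1.03 ± 0.12) while its partner in the same ring, Snrpe, had a ratio of -0.87 ± 0.12. These counts became 9 and 8 without lysate 2, 10 and 9 without lysate 3, and 30 and 5 after median centring.

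The remaining lists differed in how often their members were called. Of 14 histone genes, 4 were higher, with H2ac25 at 0.95 ± 0.12 and the linker histone H1f2 at 0.59 ± 0.10, and 1 was lower (2 without lysate 1 or 2). Aminoacyl-tRNA synthetases gave 2 higher and 3 lower of 30, with Qars1 at -0.71 ± 0.11, with 1 higher without lysate 2 and 0 without lysate 3. Median centring turned this to 7 higher and 2 lower. Actins and tubulins gave 2 higher and 4 lower of 15, with 1 higher whichever lysate was left out and 2 lower without lysate 3, and 3 higher and 0 lower after median centring. Of the 21 genes of heart, skeletal muscle and other tissue, a list that does not hold Myh1, 4 were higher and 3 lower. There were 2 higher without lysate 1 or 3, and 6 without lysate 2, and median centring gave 6 higher and 2 lower. The cytosolic chaperonin gave no call among 8 subunits by limma, with ratios from -0.28 to 0.11 and a median of 0.00.

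The polysomal over total ratio at FD22 was then set against that before and after it. The arrays of the 3 stages were separate, so the ratios share no sample. Across 11590 genes, the FD22 ratio correlated with that at FD19 (Pearson's r 0.794, Spearman's rho 0.787) and at P1 (0.774 and 0.767). This is a description across genes, which are not independent, and the stages share probes, array scaling and fractionation. Of the 1729 genes higher at FD22, 1699 had the same sign at FD19 and 1646 at P1. Of the 1390 lower genes, 1354 and 1353 did. The median ribosomal protein ratio was -0.997 at FD19, -1.28 at FD22 and -0.79 at P1, that of the proteasome was 0.35, 0.37 and 0.57, and that of erythroid genes was -0.82, -0.67 and -0.79.

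**Figure D4:**
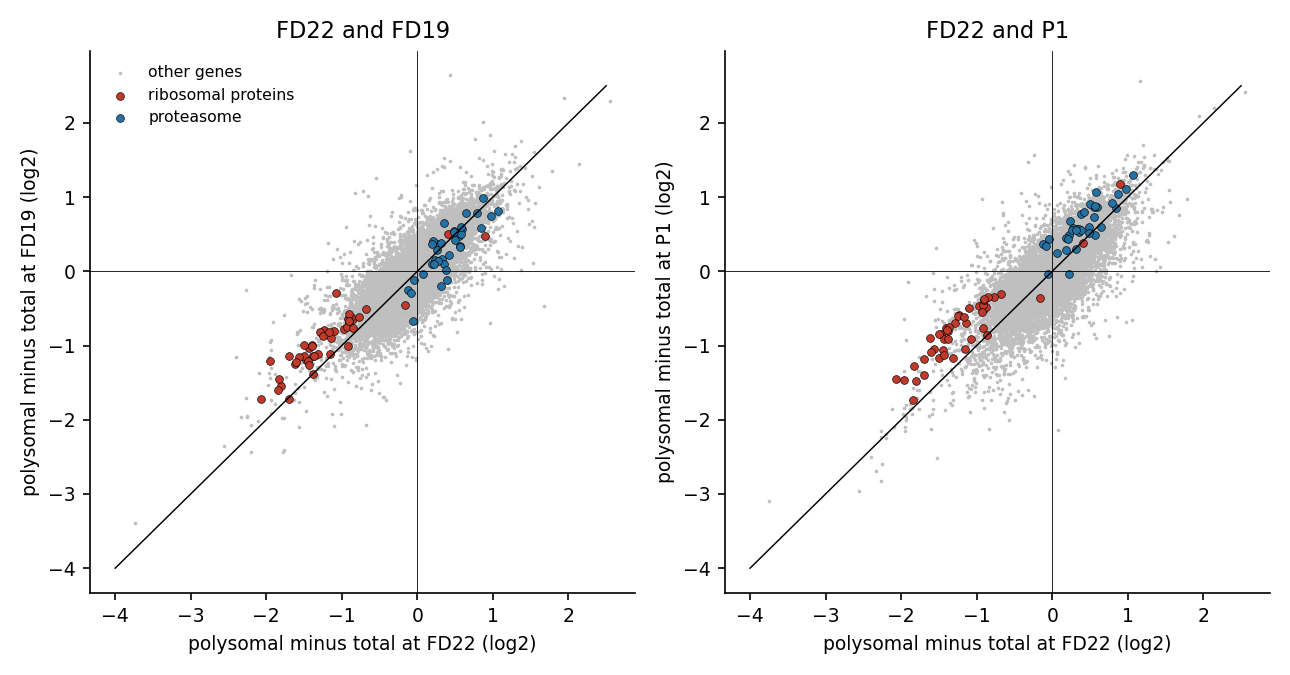
The log2 ratio of polysomal over total RNA at FD22 for each of 11590 genes against the same ratio at FD19 (left) and at P1 (right), with the line of equality. The points follow the line in both panels, with r of 0.794 and 0.774.

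No probe set differed between the FD22 ratio and the FD19 ratio at an adjusted p under 0.05 by limma, with or without the lysate block. At an unadjusted p under 0.05 there were 1553 (7.16%). The smallest adjusted p was 0.167, shared by Ctsh (difference -0.90 ± 0.14), a protease of type II cells, Alas2 (-0.94 ± 0.15), Sftpa1 (-0.83 ± 0.14), Col2a1 (1.46 ± 0.25), a collagen of cartilage, and Pbk (-1.25 ± 0.21), a mitotic kinase. For Sftpa1 this reflects a ratio of 0.99 at FD19 and 0.16 at FD22, and for Alas2 one of -0.48 and -1.42. Leaving out FD22 lysate 2 brought Col2a1 past the threshold (adjusted p 0.0469), and leaving out FD19 lysate 2 brought Cxcl3, a neutrophil chemokine, past it (-1.25, adjusted p 0.0361). Nor did the FD22 ratio differ from the mean of the ratios at FD19 and P1 for any probe set, with 992 (4.58%) at an unadjusted p under 0.05, a smallest adjusted p of 0.758, and 0 calls without the lysate block.

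After birth, 17 probe sets (0.0784%) had a lower ratio at P1 than at FD22, and none had a higher one. At an unadjusted p under 0.05 there were 1652 (7.62%). The number rested on single lysates and on the model. It was 7 without FD22 lysate 1 (1 of them higher), 0 without FD22 lysate 2, which held the liver transcripts, and 70 without FD22 lysate 3. It was 9, 0 and 3 without P1 lysate 1, 2 or 3 and 12, 10 and 9 without FD19 lysate 1, 2 or 3, which enter through the shared variance. Without the lysate block it was 3. Ppp1r2, an inhibitor of protein phosphatase 1, had ratios of 0.37, 0.60 and 1.28 at FD22 and -0.42, -1.17 and -1.03 at P1, a difference of -1.63 ± 0.23 (adjusted p 0.0171). A second probe set of Ppp1r2 differed by -1.37 ± 0.17, and another kept one was not among the 17. Ratios of the 2 that passed were above 0 in each FD22 lysate and below 0 in each P1 lysate.

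Arpc5l, of the actin-nucleating complex Arp2/3, had FD22 ratios of 0.32, 0.14 and -0.05 and P1 ratios of -0.93, -1.29 and -1.36 (-1.33 ± 0.17, adjusted p 0.00784). Ccnyl1, a cyclin-like gene, had ratios of 0.10, -0.05 and 0.04 at FD22 and -1.41, -1.31 and -1.16 at P1 (-1.32 ± 0.17, adjusted p 0.00784). Insig1, which holds the sterol sensor in the endoplasmic reticulum, had ratios of 0.05, 0.16 and -0.01 and then -1.10, -1.08 and -1.08 (-1.15 ± 0.15, adjusted p 0.0088). The FD22 ratios of these genes lay near 0, and the P1 ratios of all 3 lysates lay below them. The 3 calls left without the lysate block were the first-named probe set of Ppp1r2, Arpc5l and Ccnyl1.

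Others among the 17 were Tmed2 (-1.18), a cargo receptor of the secretory pathway, Sec11c (-1.18), of signal peptidase, and Trappc6b (-0.95), of vesicle tethering. Amd1, a polyamine enzyme whose mRNA has an upstream reading frame, differed by -0.90. Its FD19 ratios were 0.36, 0.59 and 0.28 and its FD22 ratios -0.15, -0.22 and -0.31. None of the 17 passed the test between FD22 and FD19, with adjusted p of 0.48 or more.

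**Figure D5:**
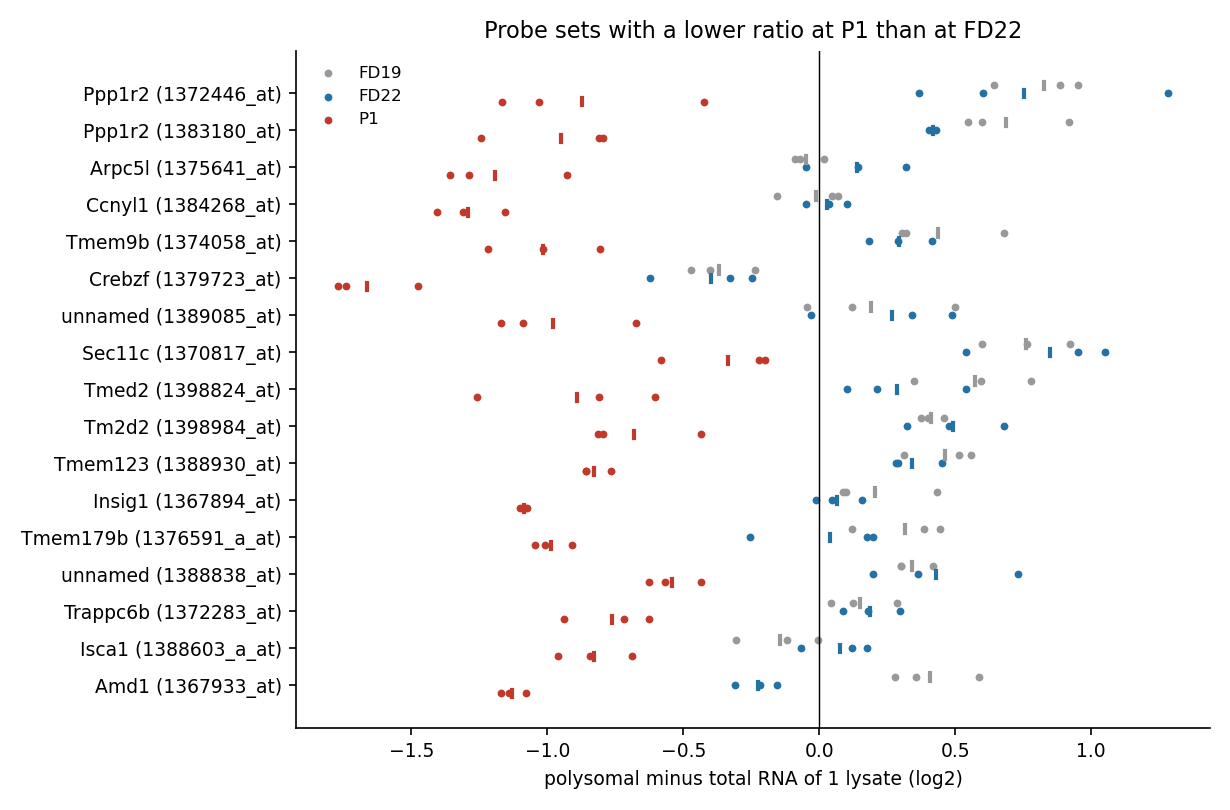
Log2 ratios of polysomal over total RNA for the 17 probe sets whose ratio was lower at P1 than at FD22, 1 point per lysate at each stage, with a short bar at the stage mean. The P1 points lie below the FD22 points of each probe set, and the FD19 points of most lie near those of FD22, with Amd1 as an exception.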

How the data were processed

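RNA of perinatal rat lung was measured on 18 Affymetrix Rat Genome 230 2.0 arrays, 6 of them at FD22. The deposited table gives 1 linear intensity per probe set, made by the authors with GCOS 1.4 per the submitters' processing notes, and the signal algorithm is not given in the sources used here. Each array had a 2% trimmed mean of 150.03 to 150.04, so a ratio between kinds of RNA is relative to the other transcripts of the array. Their number, 3 lysates per stage, limits the precision.

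The table holds 31099 probe sets. Its 57 controls were not used, and 21675 with a signal above 40.8 (the 40th percentile) in at least 3 arrays were kept. log2(signal + 5.5), where 5.5 is the 10th percentile, entered a linear model over all 18 arrays, with the 9 lysates as a block and a polysomal minus total term for each stage, in limma 3.58.1 (R 4.3.3), then eBayes with a variance trend. Fold changes on this scale understate those of dim genes. Adjusted p-values follow Benjamini and Hochberg, taken across the whole set of 21675. The block follows from the design, in which both RNAs of a replicate came from 1 lysate. At FD22, deviations from the group means correlated at 0.388, 0.488 and 0.186 within a lysate and at -0.364 to -0.028 between lysates.

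The platform annotation gave 1 gene for 20826 probe sets, several for 436 and no gene for 9780, and 20758 were matched by Entrez identifier to the RefSeq gene table. For each of 11590 genes the brightest kept probe set, by mean over the 18 arrays, stands for the gene. The genes named are the 12 highest and 12 lowest called genes with a mean signal over 200, 1 sign in all lysates and arrays that do not overlap, up to 4 called members at each end of each list, all members of lists of up to 15, those with the smallest p in stage differences, and a fixed set of lung and control genes, of which Actb, Gapdh, Hba1, Fth1, Tpt1 and Pabpc1 are not analysed here. A gene named outside this rule was chosen after its values were seen; these are mostly list members given as not called. The comparison, the gene lists and the markers were chosen with earlier results of these data known. Promoter starts came from RefSeq (GRCr8). Alternatives were other offsets and filters, quantile normalization, median centring, no variance trend, no block, FD22 arrays alone, other probe sets and left-out lysates. The fit was checked on simulated data. Tables used Python 3.11.15, numpy 2.4.6 and pandas 2.3.3, and plots matplotlib 3.10.9.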

Additional observations from a re-analysis of the deposited data

Results flagged for a closer look

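The 17 probe sets below stood out because the test of the difference itself put their polysomal over total ratio lower at P1 than at FD22, with an adjusted p of limma under 0.05. The difference, P1 minus FD22 on the log2 scale, was -1.63 and -1.37 for 2 probe sets of Ppp1r2, -1.33 for Arpc5l, -1.32 for Ccnyl1, -1.31 for Tmem9b and -1.26 for Crebzf. Another kept probe set of Ppp1r2 did not pass this test. Nor did the other kept probe sets of Crebzf, Tmed2, Isca1 and Tmem179b. The difference was -1.18 for both Sec11c and Tmed2, -1.17 for both Tm2d2 and Tmem123, -1.15 for Insig1 and -1.03 for Tmem179b. For Trappc6b, Isca1 and Amd1 it was -0.95, -0.91 and -0.90. It was -1.24 and -0.97 for 2 probe sets with no gene name here. Without FD22 lysate 2 or P1 lysate 2 none of the 17 kept an adjusted p under 0.05, and the cause was not tested.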

How the results depend on the processing

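The count of 5653 probe sets that differed between polysomal and total RNA at FD22 fell to 3329 with no replicate block and to 3499 with the FD22 arrays alone, and was 3059 to 4714 with 1 lysate left out. The 0 calls between FD22 and FD19 became 1 with the lower offset and 0 to 1 with 1 lysate left out. The 17 calls between P1 and FD22 became 8 without a filter, 38 with the stricter filter, 33 after median centring, 0 without a variance trend, 3 with no replicate block, 1 without the arrays numbered 1, and 0 to 70 with 1 lysate left out. Lysates of FD19 and P1 were left out as alternatives chosen after seeing the data. The comparison of FD22 with the mean of the other stages gave 0 calls under every alternative. For single named genes, 3714 of 4281 values under an alternative kept their direction and side of the threshold, 442 lost the call and 39 gained it. Another 81 were marked as moved, outside these classes. Under quantile normalization 5 genes turned direction: Slc34a2 to 0.27, Scgb1a1 to 0.21, Actg1 to 0.17, Hbb to 0.066 and Ctsh to 0.46. The cause was not tested. The relation of the ratio with protein length and its alternatives were not run. Array signals give no count depth, and 3 lysates leave 6 residual degrees of freedom over the 3 stages.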

Other observations

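Probe sets with no gene name here had low polysomal ratios more often than named ones. Of 5227 such probe sets, 21.6% were lower and 5.43% higher, with a median ratio of -0.27, and of 16095 annotated to 1 gene, 12.9% were lower and 12.5% higher, with a median of -0.03. The unnamed ones were also dimmer, with a median signal of 70.5 against 147, and the part of that difference was not tested. Of 3277 genes with at least 2 probe sets kept, 1420 had a call and 58 had probe sets called in opposite directions. Tpm1, a tropomyosin with many splice forms, is 1 of the 58: its probe sets read from -0.99 ± 0.15 to 0.97 ± 0.18. The receptor gene Flt1, the microglial and macrophage gene Aif1, the transcription factor Etv5 and the tRNA synthetase Eprs1 are others.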
